A study of Mus musculus with 6 samples.

Results

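The genes described here encode proteins of the mitochondrial ribosome and were taken by name: protein-coding genes whose symbol starts with Mrpl or Mrps followed by a number. The deposited tables held 77 of them among 24376 genes, 48 named for the large subunit (Mrpl) and 29 for the small subunit (Mrps). The measurement was RNA sequencing of polyadenylated RNA from blood progenitors of C57BL/6 mouse fetal liver, taken at E14.5 with a commercial progenitor isolation kit. The progenitors received retrovirus right after isolation, carrying either a short hairpin RNA against Samd14 (shSamd14) or a control short hairpin RNA, whose target is not given in the sources used here. They were then cultured in StemPro-34 for 3 days, and 200000 cells without the surface proteins CD71 and Ter119, which mark maturing erythroid cells, were lysed for each library. Both groups thus share the retroviral infection, the culture and the sort, and each has 3 libraries. Nothing in the labels ties the libraries of a group to different animals or to different cultures. The p-values therefore reflect the spread among these samples alone, which may be technical.

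Mitochondrial ribosomes translate the few proteins that the mitochondrial genome encodes, all of them hydrophobic subunits of the respiratory chain and ATP synthase. Their ribosomal RNAs come from mitochondrial DNA, whereas every protein is encoded in the nucleus, made in the cytosol and imported. A part of these proteins descends from bacterial ribosomes and the rest is particular to mitochondria. Red cell precursors rely on mitochondria for heme synthesis and iron-sulfur clusters as well as for respiration.

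Short words in the promoters are shown first, since they are a property of the genes that their names did not select for. Nuclear respiratory factor 1 (NRF1), the ETS family factor GABPA and YY1 are known to bind promoters of many nuclear genes for mitochondrial proteins. The RefSeq promoter table (GRCm38.p6, 250 bases before to 50 after a start) matched 68 of the 77 genes by symbol, and the first listed start of each was used. A form of the NRF1 site, GCGCA and GCGC with any base between them, was searched on both strands and occurred in 13 of the 68 promoters (19.1%), against 10.9% of 9548 promoters of tested protein-coding genes. CCGGAAG, the core of ETS sites, occurred in 24 (35.3%) against 18.97%, and AAGATGG, the core of YY1 sites, in 13 (19.1%) against 7.54%. At least 1 of the words occurred in 41 of the 68 promoters (60.3%), against 32.9% of all. A match describes the letters only and does not show that a factor binds there.

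The following stretches of 30 bases upstream of the start are given for genes described further on, with the word, on either strand, in capitals. The first lines hold the NRF1 word or its reverse complement. They belong to Mrpl12 (chr11:120484546-120484575, plus strand), Mrpl32 (chr13:14613105-14613134, minus strand), Mrpl39 (chr16:84735350-84735379, minus strand), Mrpl45 (chr11:97315586-97315615, plus strand), Mrpl57 (chr14:57826172-57826201, plus strand) and Mrps21 (chr3:95871586-95871615, minus strand).
Mrpl12: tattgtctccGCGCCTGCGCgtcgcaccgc
Mrpl32: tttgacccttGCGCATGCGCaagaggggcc
Mrpl39: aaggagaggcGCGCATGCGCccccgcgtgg
Mrpl45: gaagcctcctGCGCAGGCGCagctggctct
Mrpl57: tttgaatcctGCGCAGGCGCagaaggcgtc
Mrps21: ggaaagtccaGCGCCTGCGCtcagcaccga
The next lines hold CCGGAAG or its reverse complement, in Mrpl52 (chr14:54426851-54426880, plus strand), Mrpl58 (chr11:115403722-115403751, plus strand), Mrps16 (chr14:20393546-20393575, minus strand), Mrps18a (chr17:46110967-46110996, plus strand), Mrps18c (chr5:100798592-100798621, plus strand) and Mrps26 (chr2:130563727-130563756, plus strand).
Mrpl52: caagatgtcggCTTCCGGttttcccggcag
Mrpl58: ggctggcggaccgCCGGAAGagtgagcacc
Mrps16: ttgggggcgctCTTCCGGgcttcaggctct
Mrps18a: acacccctgctCCGGAAGcggaagtgcaca
Mrps18c: gggtcacgtgaCTTCCGGcccgggaagcgc
Mrps26: tggtgctccgcggccaCTTCCGGgccgggc
The last lines hold AAGATGG or its reverse complement, in Mrpl52 (chr14:54426807-54426836, plus strand) and Mrps12 (chr7:28742001-28742030, minus strand).
Mrpl52: tacgataacgcAAGATGGtgggaccggcga
Mrps12: catggacgcagCCATCTTggagtggaaaca
In Mrpl52, 40 bases lie between the ETS word and the start, and 84 bases between the YY1 word and the start.

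All 77 genes were expressed well above the filter on low counts, and all entered the test. The lowest estimated count of any of them in any library was 249, and the lowest scaled level was 12.03 counts per 1000000 (CPM). Transcript levels per length, in transcripts per 1000000 (TPM), spanned 12.8-fold between genes, with a median of 68.1 TPM and an interquartile range of 49.9 to 117 TPM, against a median of 17.4 TPM over the 12670 tested genes. The large subunit genes had a median of 68.2 TPM and the small subunit genes one of 67.3 TPM. Genes with a bacterial counterpart had a median of 87.1 TPM (46 genes), and genes particular to mitochondria one of 60.0 TPM (31 genes).

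**Figure D1:**
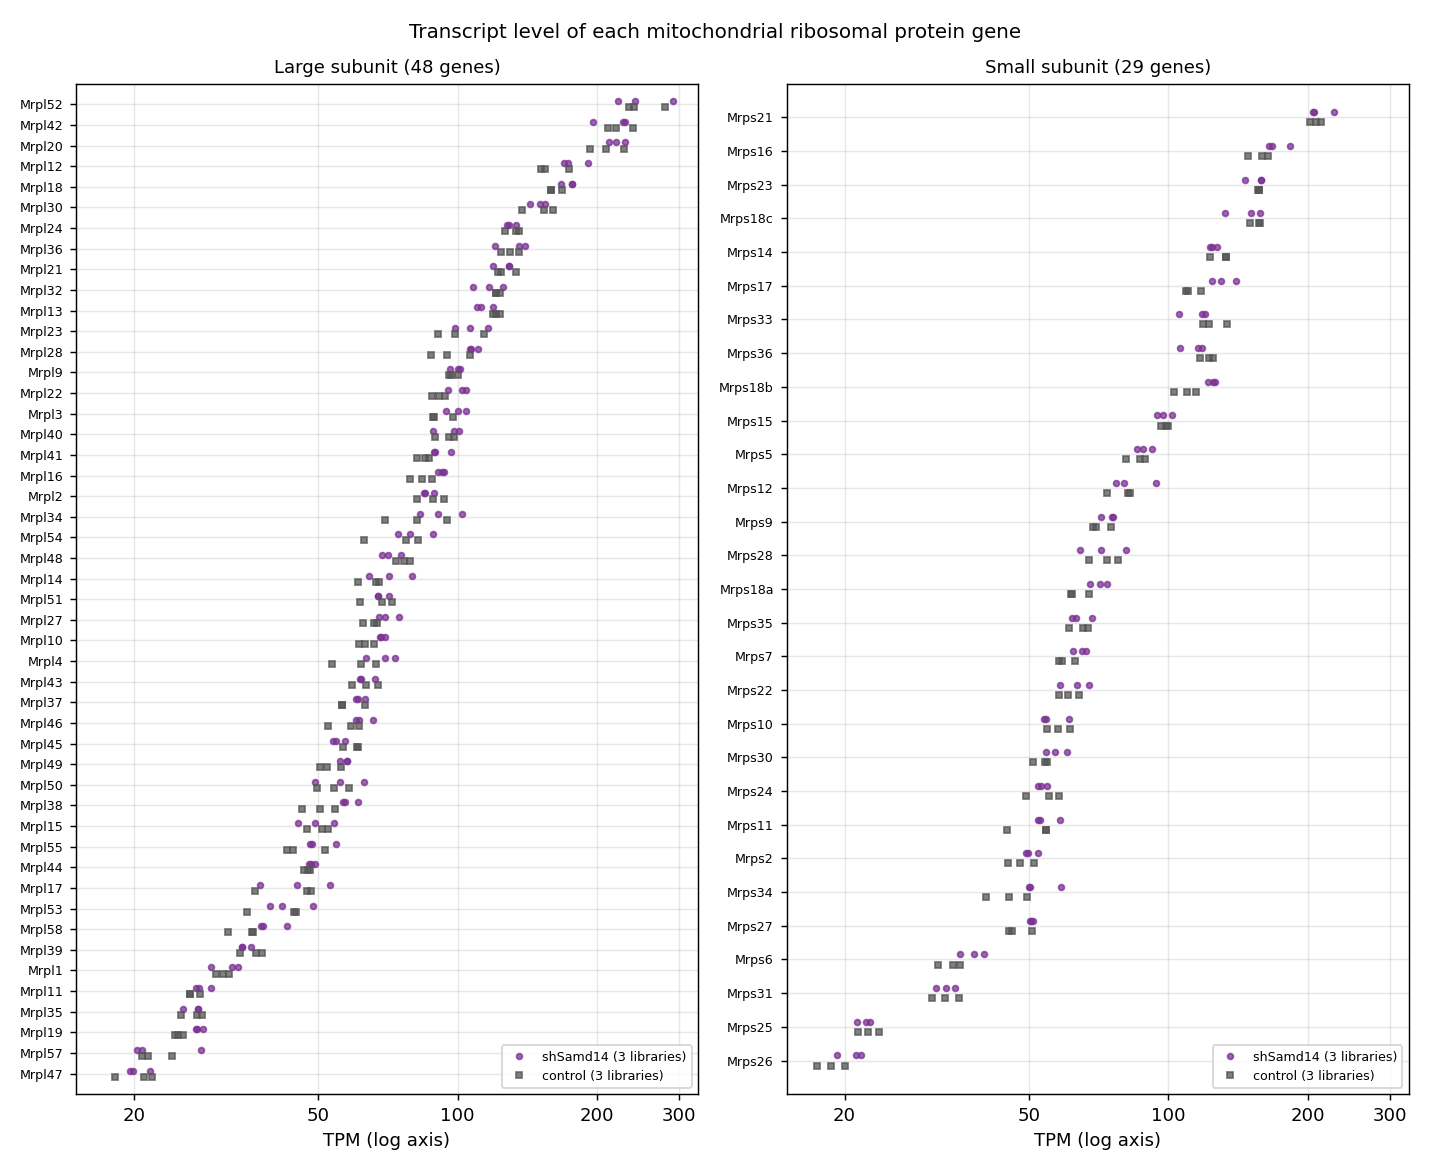
Transcript level in TPM (log axis) of the 48 large and 29 small subunit genes, 1 row per gene ordered by mean level, with circles for the 3 shSamd14 and squares for the 3 control libraries. The symbols of each gene lie close together compared with the spread between genes, which runs from a mean of 19.7 TPM for Mrps26 to 251 TPM for Mrpl52.

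At the top, Mrpl52, a protein of the central protuberance of the large subunit, averaged 252 ± 36.4 TPM in shSamd14 and 251 ± 24.9 TPM in control libraries (SD, n = 3 each). Mrpl42 had 218 ± 18.8 TPM in shSamd14 and 223 ± 14.7 TPM in control libraries. Mrpl20, which has a bacterial counterpart, had 220 ± 9.30 TPM in shSamd14 and 210 ± 17.9 TPM in control libraries. The levels of these 3 genes overlapped, so their order is not resolved. Mrps21 (213 ± 12.99 TPM in shSamd14, 208 ± 5.87 TPM in control), Mrps16 (172 ± 9.97 TPM in shSamd14, 157 ± 8.20 TPM in control) and Mrps23 (154 ± 6.90 TPM in shSamd14, 157 ± 0.619 TPM in control) were the highest of the small subunit. At the bottom lay Mrps26 (20.7 ± 1.32 TPM in shSamd14, 18.7 ± 1.27 TPM in control), Mrpl47 (20.4 ± 1.09 TPM in shSamd14, 20.4 ± 1.94 TPM in control), Mrps25 (22.1 ± 0.731 TPM in shSamd14, 22.6 ± 1.17 TPM in control) and Mrpl57 (23.04 ± 4.29 TPM in shSamd14, 22.2 ± 1.81 TPM in control), whose values overlapped too. The order of the 77 genes was much the same in every library, with rank correlations across genes of 0.977 to 0.993 between pairs of libraries, as a description.

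Part of this spread went with the transcript length that RSEM used. Across the 77 genes, TPM and length had a Spearman correlation of -0.60, given as a description, since length enters the calculation of TPM. Mrps25 had 80.9 ± 5.01 CPM in shSamd14 and 83.2 ± 5.15 CPM in control libraries, but its length of 6073 bases placed it near the bottom per length. Mrpl52, at 412 bases, had 53.8 ± 9.39 CPM in shSamd14 and 54.0 ± 6.45 CPM in control libraries.

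The design asks which transcripts differ when Samd14 is lowered. Samd14 itself had 41.9, 38.8 and 39.4 CPM in the shSamd14 libraries, against 82.0, 82.1 and 83.8 CPM in the control libraries, so this check of the labels held. Libraries had 20584169 to 26462797 estimated counts. The 6 progenitor markers, Kit and Cd34 among them, summed to between 494 and 536 TPM in shSamd14 and between 474 and 567 TPM in control libraries, with 0 called. Kit alone did not overlap, with 474, 465 and 422 CPM in shSamd14 against 657, 560 and 495 CPM in control libraries. Its log2 fold change was -0.33 (SE 0.09; edgeR quasi-likelihood adjusted p = 0.0943). Tfrc, an erythroid marker and the other check, had a log2 fold change of -0.18 (SE 0.07; edgeR quasi-likelihood adjusted p = 0.239), with overlap. Summed TPM of 9 erythroid markers lay between 11228 and 14450 in shSamd14 and between 5999 and 10879 in control libraries. Of these 9, Tfrc among them, 0 were called. The sum of 6 megakaryocyte markers lay between 331 and 367 in shSamd14 and between 261 and 271 in control libraries, with 2 of the 6 called higher. Neutrophil markers (4809 to 7305 TPM in shSamd14, 4322 to 6915 TPM in control), macrophage markers (21.1 to 30.5 TPM in shSamd14, 20.4 to 33 TPM in control, with C1qa at 0), hepatocyte markers (33.1 to 45.7 TPM in shSamd14, 39.5 to 81.1 TPM in control, with Serpina1a at 0), mast cell markers (58.5 to 73.3 TPM in shSamd14, 62.0 to 70.4 TPM in control) and endothelial markers (8.25 to 10.8 TPM in shSamd14, 7.68 to 8.91 TPM in control) overlapped between the groups. The part of these other cells in the values below was not tested, and in such bulk samples fewer cells of a type and less RNA per cell cannot be told apart.

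No mitochondrial ribosomal protein gene passed the test. With edgeR's quasi-likelihood test and Benjamini-Hochberg adjustment over all 12670 tested genes, 327 genes (2.58%) had an adjusted p under 0.05, of which 167 (1.32%) were higher and 160 (1.26%) lower in shSamd14, and 0 of the 77 were among them in either direction. At an unadjusted p under 0.05 there were 4 of the 77 against 1900 of all tested genes (15%). DESeq2 and limma-voom also called 0 of the 77, with 4 each at an unadjusted p under 0.05, where 11.7% of all genes tested with DESeq2 and 15.1% with limma-voom had one. Limma on log2(TPM + 1) called 0, with 11 of the 77 and 13.2% of all tested genes at an unadjusted p under 0.05. In edgeR that number of members was 0 without shSamd14 replicate 1 (12.1% of all tested genes) and 1 without control replicate 1 (10.6%). It was 2 without shSamd14 replicate 2 (13.5% of all tested genes) and 3 without control replicate 3 (16%). It was 11 without shSamd14 replicate 3 (13.2% of all tested genes) and 11 without control replicate 2 (13.6%). The shSamd14 libraries lay wholly above the control libraries for 3 of the 77 (Mrps18b, Mrpl58 and Mrpl19), where 10.5% of all tested genes did, and wholly below them for 0, where 10.2% did.

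The fold changes were small in both directions. On the log2 scale they ranged between -0.11 for Mrps33 and 0.25 for Mrpl58. Like the p-values, the intervals given here reflect the spread among these samples alone, which may be technical. The 95% intervals of all 77 lay within a 1.5-fold difference either way, and those of 63 within 1.25-fold. The outermost bounds were 0.798-fold, for Mrpl52, and 1.37-fold, for Mrpl34.

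**Figure D2:**
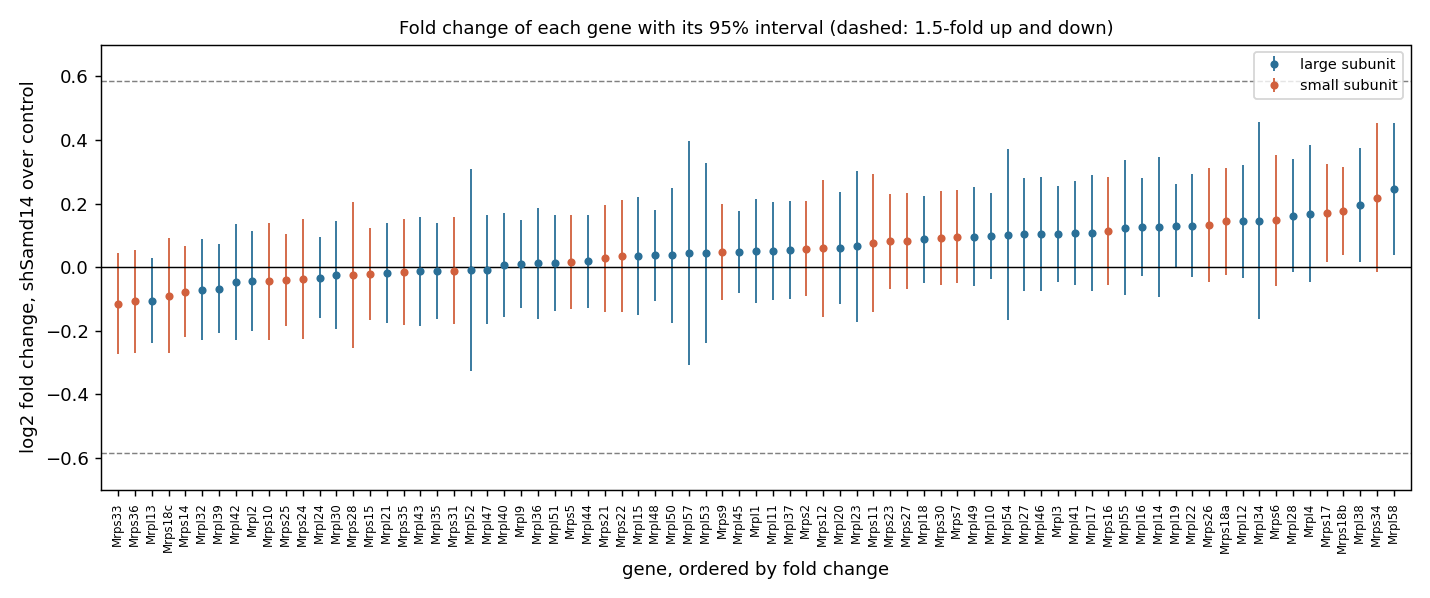
Log2 fold change of each gene, shSamd14 over control, with its 95% interval from edgeR's quasi-likelihood fit, the genes ordered by fold change and coloured by subunit; dashed lines mark 1.5-fold up and down. All 77 intervals stay between the dashed lines, and 4 of them, on the right, do not reach 0.

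Mrps18b, a small subunit protein and 1 of 3 mammalian relatives of the bacterial S18 protein, had the smallest p of the set. Its transcript (ENSMUSG00000024436; chromosome 17, 35910379 to 35916389, minus strand, GRCm38) had 78.9, 74.2 and 72.7 CPM in shSamd14 libraries, against 64.1, 70.6 and 64.9 CPM in control libraries. The groups did not overlap, and their means were 75.3 ± 3.21 CPM in shSamd14 and 66.6 ± 3.57 CPM in control libraries (SD, n = 3 each). The log2 fold change was 0.18 (SE 0.07), and edgeR's quasi-likelihood test gave it an adjusted p of 0.198. The groups of the other relatives overlapped. Mrps18a, which sits in the large subunit despite its name, had 36.5, 36.8 and 32.8 CPM in shSamd14 against 29.9, 31.7 and 34.4 CPM in control libraries, with a log2 fold change of 0.14 (SE 0.08). Mrps18c, in the small subunit, had 55.2, 55.6 and 45.1 CPM in shSamd14 against 51.2, 57.1 and 57.4 CPM in control libraries, with a log2 fold change of -0.09 (SE 0.08), which was -0.0005 without shSamd14 replicate 3. For these, edgeR's quasi-likelihood test gave Mrps18a an adjusted p of 0.427 and Mrps18c one of 0.672.

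Mrpl58, a peptidyl-tRNA hydrolase built into the large subunit that releases stalled chains, had the largest fold change in counts. It had 21.6, 17.9 and 18.6 CPM in shSamd14 libraries, against 15.9, 17.6 and 15.5 CPM in control libraries. All 3 shSamd14 values were above all 3 control values, by a small margin at the nearest pair. The means were 19.4 ± 1.94 CPM in shSamd14 and 16.3 ± 1.12 CPM in control libraries (SD, n = 3 each), and edgeR's quasi-likelihood test gave the log2 fold change of 0.25 (SE 0.10) an adjusted p of 0.237. Mrpl58 is among the least counted members, and shSamd14 replicate 1 held the highest value. The length that RSEM used for it was 863, 849 and 888 bases in shSamd14 against 808, 843 and 840 bases in control libraries. With these lengths as offsets its log2 fold change was 0.18 (edgeR quasi-likelihood adjusted p = 0.435).

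Mrpl19, the third gene without overlap, had 84.3, 84.7 and 79.8 CPM in shSamd14 against 72.7, 78.8 and 75.9 CPM in control libraries. Its log2 fold change was 0.13 (SE 0.06; edgeR quasi-likelihood adjusted p = 0.337). Mrps17, a small subunit protein with a bacterial counterpart, had 75.3, 70.4 and 65.1 CPM in shSamd14 against 60.6, 66.9 and 59.7 CPM in control libraries, with a log2 fold change of 0.17 (SE 0.07; edgeR quasi-likelihood adjusted p = 0.267). Here shSamd14 replicate 3 lay below control replicate 2. Mrpl38, of the central protuberance, had 51.6, 46.3 and 45.5 CPM in shSamd14 against 36.8, 45.9 and 42.5 CPM in control libraries, with a log2 fold change of 0.19 (SE 0.08; edgeR quasi-likelihood adjusted p = 0.284). Mrps34, needed for small subunit stability, had 31.5, 26.1 and 25.3 CPM in shSamd14 against 20.4, 26.5 and 24.2 CPM in control libraries, with a log2 fold change of 0.22 (SE 0.11; edgeR quasi-likelihood adjusted p = 0.371). In Mrpl38 and Mrps34 the highest value was that of shSamd14 replicate 1 and the lowest that of control replicate 1, while the other libraries lay close together.

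On the negative side no gene reached an unadjusted p of 0.05. Mrps33, a small subunit protein particular to mitochondria, had 59.8, 58.0 and 51.5 CPM in shSamd14 libraries, against 57.7, 65.4 and 60.1 CPM in control libraries. Its log2 fold change was -0.11 (SE 0.07; edgeR quasi-likelihood adjusted p = 0.519). Mrpl13, which has a bacterial counterpart, had 79.8, 83.1 and 76.1 CPM in shSamd14 against 81.3, 87.2 and 88.6 CPM in control libraries, and a log2 fold change of -0.11 (SE 0.06; edgeR quasi-likelihood adjusted p = 0.473). Mrps36 had 42.8 ± 3.41 CPM in shSamd14 and 46.1 ± 2.61 CPM in control libraries, with a log2 fold change of -0.11 (SE 0.08). The protein is now placed in a dehydrogenase complex of the citric acid cycle and not in the ribosome, and the gene has a pseudogene copy that could share its reads. Mrps14, in the head of the small subunit, had a log2 fold change of -0.08 (SE 0.07), Mrpl32, which a mitochondrial protease trims before assembly, one of -0.07 (SE 0.07), and Mrpl39 one of -0.07 (SE 0.07). In each of these genes the values of the groups overlapped.

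As no member was called, no site of the ribosome could hold a called gene, and the sites are described by their medians. The 5 proteins of the stalk that recruits translation factors, and of its base (Mrpl10, Mrpl11, Mrpl12, Mrpl53 and Mrpl54), all had positive log2 fold changes, with a median of 0.10. Mrpl12, which forms the stalk itself, had 150, 132 and 126 CPM in shSamd14 against 112, 136 and 121 CPM in control libraries, a log2 fold change of 0.14 (SE 0.08; edgeR quasi-likelihood adjusted p = 0.455), which was 0.06 without shSamd14 replicate 1, 0.08 without control replicate 1 and 0.22 without control replicate 2. The 5 proteins at and near the peptidyl transferase centre had a median of 0.10, with 4 positive, the 7 of the central protuberance one of 0.09, with 6 positive, and the 6 at the exit tunnel one of 0.06, with 4 positive. In the small subunit, the 5 proteins of the decoding site and head had a median of 0.05, with 3 positive, and the 3 at the entry of the mRNA channel one of 0.02, with 2 positive. Mrps12, at the decoding site, had 34.4 ± 4.54 CPM in shSamd14 and 33.01 ± 3.28 CPM in control libraries, and Mrpl44, with a ribonuclease III fold, had 40.2 ± 1.09 CPM in shSamd14 and 39.6 ± 1.84 CPM in control libraries. Mrps30, another protein named for the small subunit that lies in the large one, had 53.3 ± 3.54 CPM in shSamd14 and 49.98 ± 2.02 CPM in control libraries, a log2 fold change of 0.09 (SE 0.07).

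The genes of both subunits had nearly the same median. Of the 48 large subunit genes 36 had a positive log2 fold change, with a median of 0.05, and of the 29 small subunit genes 18 did, with a median of 0.05. Over all tested genes the median was 0.01, with 51.6% positive and an interquartile range of -0.09 to 0.10. The median of all 77 genes changed with the libraries included. Without shSamd14 replicate 1 it was -0.003, and without control replicate 1 it was -0.007. Without both, an alternative chosen after seeing the data, it was -0.05, with 24 of 77 genes positive. Leaving out shSamd14 replicate 3 gave a median of 0.104, with 67 of 77 genes positive. Leaving out control replicate 2 gave 0.101, with 66 of 77 positive. The latter libraries were not left out together.

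The summed levels were examined in the same way. All 77 genes together made up 4594, 4344 and 4035 CPM in the shSamd14 libraries, against 3904, 4449 and 4217 CPM in the control libraries, which is 4325 ± 280 CPM in shSamd14 and 4190 ± 274 CPM in control libraries (SD, n = 3 each). The groups overlapped and their means differed by 3.22%, less than the SD within either group. As a log2 ratio the difference was 0.05, which became 0.001 without shSamd14 replicate 1 and -0.0043 without control replicate 1. It became 0.0946 without shSamd14 replicate 3 and 0.0901 without control replicate 2. The large subunit genes summed to 3000, 2835 and 2635 CPM in shSamd14 against 2539, 2899 and 2746 CPM in control libraries, and the small subunit genes to 1594, 1508 and 1401 CPM in shSamd14 against 1365, 1550 and 1471 CPM in control libraries. On the per-length scale the 77 genes summed to 6902, 6648 and 6330 TPM in shSamd14 against 6146, 6673 and 6428 TPM in control libraries.

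**Figure D3:**
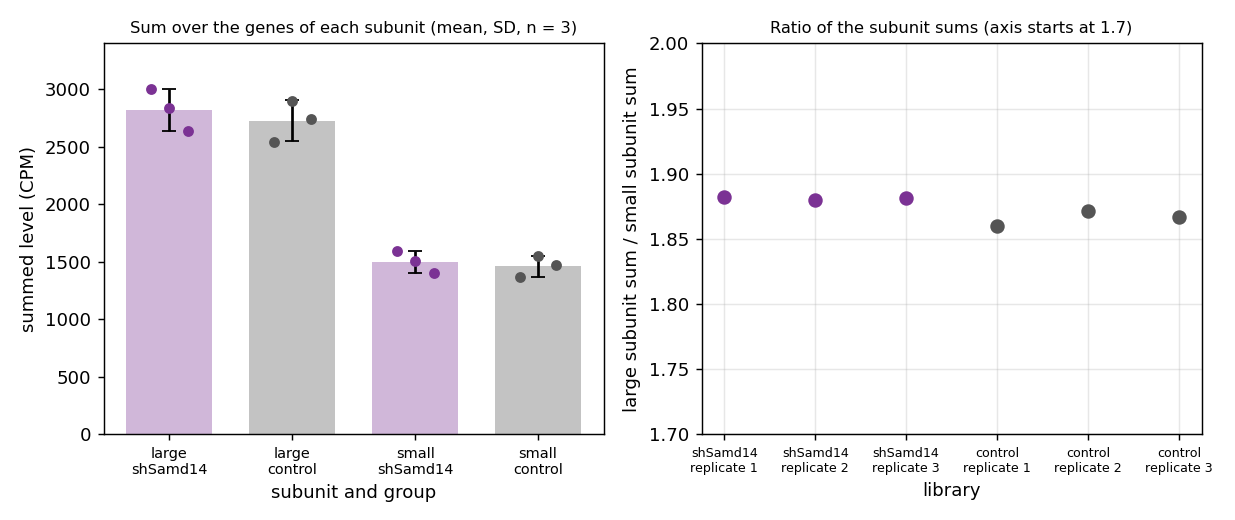
Left, summed level in CPM of the large and small subunit genes by group, with points for libraries in replicate order, bars for the mean and error bars for the SD of 3 libraries; right, ratio of the large to the small subunit sum in each library, on an axis that starts at 1.7. The sums of both subunits go up and down together between libraries, while the ratio stays between 1.86 and 1.88.

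While the sum of all 77 genes ranged between 3904 and 4594 CPM over the libraries, the balance of the subunits varied less. The ratio of the large to the small subunit sum was 1.88, 1.88 and 1.88 in the shSamd14 libraries, against 1.86, 1.87 and 1.87 in the control libraries. The means were 1.881 ± 0.0011 in shSamd14 and 1.866 ± 0.00526 in control libraries (SD, n = 3 each). The values did not overlap, and the difference was 0.01 on the log2 scale. In TPM the ratios overlapped, with 1.699, 1.683 and 1.689 in shSamd14 against 1.660, 1.691 and 1.680 in control libraries. With Mrps30 and Mrps18a counted in the large subunit and Mrps36 in neither, the CPM ratios were 2.120, 2.136 and 2.123 in shSamd14 against 2.106, 2.104 and 2.111 in control libraries, and the TPM ratios 1.933, 1.934 and 1.929 in shSamd14 against 1.902, 1.926 and 1.922 in control libraries. Counted in this way, the ratios did not overlap between the groups on either scale. No test was made of these ratios, since the set was chosen with results of these data known.

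The genes shifted together between libraries of the same group. In shSamd14 replicate 1, 74 of the 77 genes lay above their own mean over the 6 libraries, in replicate 2 53 did, and in replicate 3 12 did. In control replicate 1, 3 of the 77 did, in replicate 2 64 did and in replicate 3 35 did. Of all tested genes, between 49.2% and 51.7% lay above their own mean in each library, a share that scaling and centring keep near this level. Each group therefore held libraries in which most of the set was high and libraries in which most was low.

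**Figure D4:**
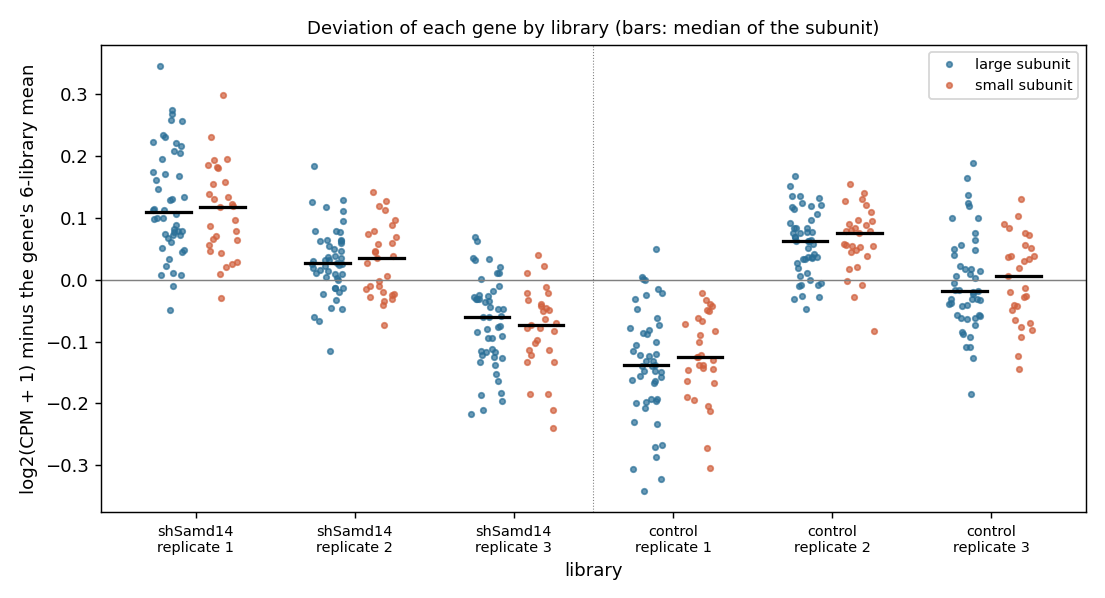
Deviation of each gene in each library from its own mean over 6 libraries, as a log2 difference of CPM + 1, for large and small subunit genes, with bars at the subunit medians. Of the 77 genes, 74 lie above their own mean in shSamd14 replicate 1 and 3 in control replicate 1, and the medians of both subunits have the same sign in each library except control replicate 3, where they are -0.02 for the large and 0.005 for the small subunit.

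As medians over the 77 genes, these deviations were 0.11, 0.03 and -0.07 on the log2 scale in shSamd14 replicates 1, 2 and 3, and -0.13, 0.06 and -0.02 in control replicates 1, 2 and 3. The large subunit medians were 0.11, 0.03 and -0.06 in shSamd14 and -0.14, 0.06 and -0.02 in control libraries, and the small subunit medians 0.12, 0.03 and -0.07 in shSamd14 and -0.12, 0.07 and 0.005 in control libraries. The 79 tested genes for proteins of the cytosolic ribosome had medians of 0.08, -0.04 and -0.09 in shSamd14 and -0.11, 0.08 and 0.09 in control libraries. They too were high in shSamd14 replicate 1 and low in control replicate 1, but had the opposite sign to the mitochondrial set in shSamd14 replicate 2 and control replicate 3. The 13 protein-coding genes of mitochondrial DNA had medians of -0.06, -0.0002 and -0.06 in shSamd14 and 0.08, 0.13 and -0.07 in control libraries, and lay high where the nuclear set was low in control replicate 1. Control replicate 1 was also the library with the fewest counts. Erythroid marker sums were 13449, 11228 and 14450 TPM in shSamd14 and 8765, 5999 and 10879 TPM in control libraries, in an order unlike that of the 77 genes. The part of depth or of other cells in these shifts was not tested. Because the shifts lie within the groups, they enter the spread between replicates: the coefficient of variation of a member had a median of 7.04% in shSamd14 and 7.66% in control libraries, against 6.86% in shSamd14 and 7.12% in control libraries over all tested genes. It was highest for Mrpl57 in shSamd14, at 21.6%, where replicate 1 had 39.7 CPM and the others 28.5 and 27.1 CPM, and for Mrpl34 in control libraries, at 17.8%.

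Genes that act with this ribosome were also without a call. Over all tested genes 2.58% were called, so lists this short need not hold any. The 5 ribosomal proteins that carry other names had log2 fold changes of 0.01 for Dap3, a GTP-binding protein of the small subunit, 0.07 for Ptcd3, which lies at the mRNA entry, 0.16 for Aurkaip1, -0.04 for Chchd1 and 0.02 for Gadd45gip1. Aurkaip1 had 84.7, 71.6 and 73.3 CPM in shSamd14 against 60.6, 70.5 and 74.6 CPM in control libraries (edgeR quasi-likelihood adjusted p = 0.425). Of 27 genes of ribosome assembly in mitochondria, 0 passed in either direction, 21 had a positive log2 fold change, with a median of 0.08, and 8 (29.6%) lay wholly above control, beside the 10.5% of all tested genes. Among them Mpv17l2, which human cells need for assembly, had 25.1, 22.9 and 23.5 CPM in shSamd14 against 19.2, 19.8 and 21.5 CPM in control libraries, a log2 fold change of 0.24 (SE 0.08; edgeR quasi-likelihood adjusted p = 0.170).

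Of 16 tested translation factors and regulators of mitochondria 0 passed, with a median of 0.03. In this list 5 lay wholly above control and 1 wholly below it (37.5% apart), beside 20.7% apart over all tested genes. The member with the smallest p, listed as 2810006K23Rik, had 16.9, 18.4 and 18.1 CPM in shSamd14 against 12.6, 14.46 and 14.7 CPM in control libraries, with a log2 fold change of 0.35 (SE 0.09; edgeR quasi-likelihood adjusted p = 0.0674), which passed without the filter on low counts (adjusted p = 0.0397). Of 17 mitochondrial aminoacyl-tRNA synthetases 0 passed, with a median of 0.02, and 2 lay wholly above and 0 wholly below control (11.8% apart). Aars2, which charges alanine tRNA, had 26.1, 26.2 and 25.01 CPM in shSamd14 against 21.4, 24.04 and 22.9 CPM in control libraries (edgeR quasi-likelihood adjusted p = 0.297). Of 19 tested genes of mitochondrial transcription and DNA maintenance 0 passed, with a median of -0.02. Here 3 lay wholly above and 1 wholly below control (21.1% apart). The RNA helicase gene Supv3l1 had 59.6 ± 2.66 CPM in shSamd14 and 51.2 ± 1.15 CPM in control libraries (SD, n = 3 each; edgeR quasi-likelihood adjusted p = 0.0954).

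The messages that the mitochondrial ribosome translates had a median log2 fold change of -0.10 over 13 genes, 10 of them negative. Of these 0 passed, 0 lay wholly above and 1 wholly below control (7.69% apart). The mt-Atp8 gene, which encodes a subunit of ATP synthase, had 1158, 1224 and 1173 CPM in shSamd14 against 1441, 1440 and 1240 CPM in control libraries, with a log2 fold change of -0.21 (SE 0.07; edgeR quasi-likelihood adjusted p = 0.174). DESeq2 gave mt-Atp8 an adjusted p of 0.0494. RSEM used a length of 204 bases for this gene, and how its reads were shared with other genes was not examined. The transcripts of mitochondrial DNA were captured by their short poly(A) tails, so the values need not follow their full amount. The cytosolic ribosomal protein genes had a median of -0.04, with 19 of 79 positive and 0 called, and 2 lay wholly below control (2.53% apart).

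**Figure D5:**
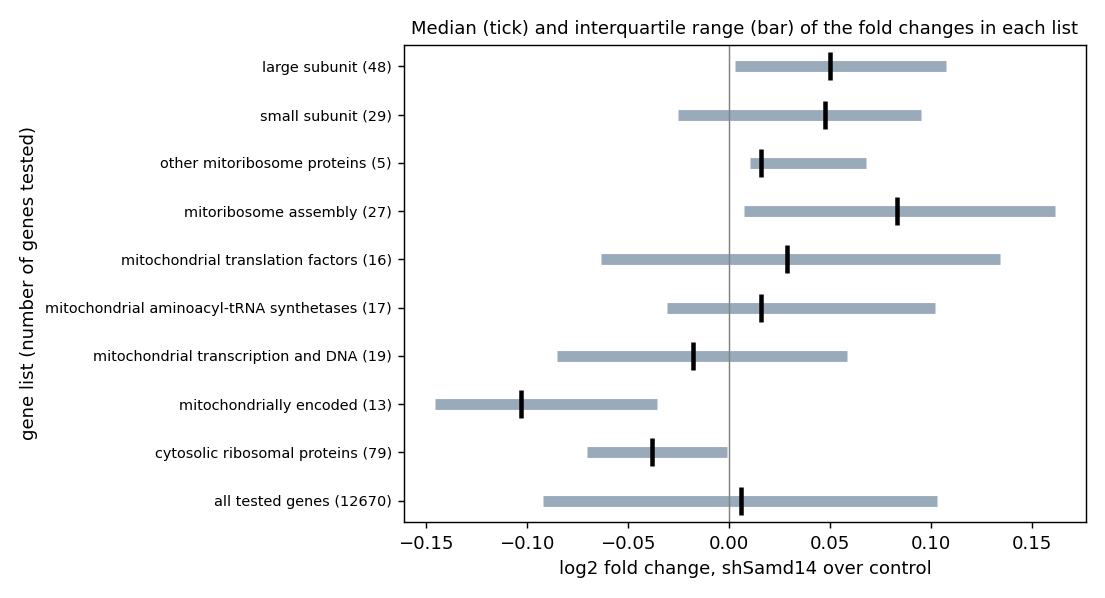
Median (tick) and interquartile range (bar) of the log2 fold change, shSamd14 over control, in each gene list, with the number of genes tested. Both mitochondrial ribosome subunits lie at a median of 0.05, the mitochondrially encoded genes at -0.10 and all tested genes at 0.01. None of the lists other than all tested genes, of which 2.58% were called, holds a called gene.

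The sign of the fold change depended on the scale for some genes. With effective lengths as offsets, 50 of the 77 genes were positive in place of 54, and the 4 that turned were Mrpl45, Mrps23, Mrpl48 and Mrpl15. Mrpl48 was at 0.04 in counts and -0.09 with the offsets, and Mrpl15 at 0.03 in counts and -0.03 with the offsets. Mrpl45 encodes a protein near the exit tunnel that anchors the ribosome to the inner membrane. In reads it had 81.1, 77.5 and 80.1 CPM in shSamd14 against 73.6, 78.1 and 79.1 CPM in control libraries, a log2 fold change of 0.05 (SE 0.06). Per length it had 54.6, 53.9 and 57.2 TPM in shSamd14 against 61.0, 60.7 and 56.5 TPM in control libraries, and with the offsets the log2 fold change was -0.11 (edgeR quasi-likelihood adjusted p = 0.435). The length that RSEM estimated from the mix of annotated transcripts was 2426, 2431 and 2431 bases in shSamd14 and 2098, 2122 and 2307 bases in control libraries, without overlap. Mrps23 had lengths of 879, 853 and 887 bases in shSamd14 against 781, 843 and 810 bases in control libraries, again without overlap, and its log2 fold change was 0.08 in counts and -0.02 with the offsets. Only 4 of the 77 genes (also Mrpl48 and Mrpl17) differed by over 5% in mean length between the groups, and 48 had the same length in all libraries. Length estimates of this kind depend on how reads are divided between overlapping transcripts, and no test was made of them.

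The genes lay on 17 chromosomes, with 11 of them on chromosome 11 and 8 on chromosome 17. The start of another protein-coding gene lay on the opposite strand within 1000 bases for 33 of the 77 (42.9%), against 16.7% of 12009 tested protein-coding genes. Some of these neighbours also serve mitochondria: Mrpl36 starts 29 bases from Ndufs6, a subunit of respiratory complex I, Mrps12 starts 172 bases from Sars2, the mitochondrial seryl-tRNA synthetase, and Mrpl43 starts 779 bases from Twnk, the mitochondrial DNA helicase. Mrpl46 and Mrps11, which overlap on opposite strands, start 412 bases from each other, with log2 fold changes of 0.10 for Mrpl46 and 0.08 for Mrps11. Mrps18b starts 45 bases from Ppp1r10, a nuclear phosphatase regulator, which had a log2 fold change of 0.07 (edgeR quasi-likelihood adjusted p = 0.681). Of 31 tested partners 0 were called, where 2.58% of all tested genes were. Another protein-coding gene overlapped 25 of the 77 (32.5%), against 26% of tested protein-coding genes, most often on the opposite strand. No source used here states whether counting used strand, so the values of overlapping genes are uncertain. Among these are Mrpl13, Mrpl19, Mrpl36, Mrpl43, Mrpl44, Mrpl46, Mrpl47, Mrps11, Mrps18a, Mrps25, Mrps30 and Mrps34.

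Medians were also taken with and without each promoter word. The median log2 fold change was 0.04 for the 13 promoters with the NRF1 word and 0.05 for the 55 without, 0.08 for the 24 with the ETS word and 0.04 for the 44 without, and 0.05 both for the 13 with the YY1 word and for the 55 without. In the 3′ untranslated region (UTR), 4 words of 7 bases that had been picked out in these same data, from the genes that did change, were counted as well. CTGATTA or TGATTAA occurred in 8 of 76 searched members (10.5%), against 14.4% of 11844 searched genes, and CAAGTGT or AAGTGTA in 11 (14.47%), against 21.7%. Members have short 3′ UTRs, with a median of 393 bases against 1192 bases. The 8 genes with the first words, Mrps17 and Mrpl19 among them, had a median log2 fold change of 0.02 and the other searched members one of 0.06, and the 11 with the second words had a median of 0.02 and the others one of 0.05.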

How the data were processed

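The 6 libraries were grouped by their titles, 3 shSamd14 and 3 control. The submitters' processing notes name RSEM 1.2.15, Bowtie 1.0.1, CASAVA 1.8.2 and mm10 as the build, but give neither roles nor settings. Each library has a table that the authors deposited, holding, per the file headers, RSEM expected counts, in which reads that map to several genes are shared, TPM, scaled to 1000000 transcripts, and estimated lengths. No source used here states the annotation release or the use of strand. Symbols, types and coordinates came from GENCODE M21 (GRCm38, the assembly of mm10), which named 23580 of 24376 IDs. Mrpl33 was not analysed here. The members and lists were chosen with earlier results of these data known.

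After rounding, the expected counts went into edgeR 4.0.16 (R 4.3.3; filterByExpr, minimum count 10 and minimum total 15; TMM factors of 0.986 to 1.02; robust quasi-likelihood fit, two-sided; Benjamini-Hochberg adjustment over 12670 genes; call at an adjusted p under 0.05). The biological coefficient of variation was 7.52%. The SE is the absolute log2 fold change over the square root of F, and 95% intervals use the fit's t quantile. CPM are TMM-scaled. Between 0.111 and 0.145 CPM correspond to 3 counts, far below any member. The fit was tested on simulated data, with known folds given to genes drawn from all tested genes. It called 41.8% of those changed 1.25-fold, 72.8% of those changed 1.5-fold and 90.6% of those changed 2-fold. The members were not simulated on their own.

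By the rule for named genes, members past the threshold were named (there were 0), in each subunit the 3 with the smallest p in each direction and the 3 highest and 2 lowest in TPM, and 10 chosen by role, and of each related list the gene with the smallest p. Samd14, Kit and Tfrc were named as checks. Mrpl34, Mrpl48, Mrpl17, the other head-to-head pairs and the ribosomal proteins with other names were named beside a value after it was seen. Alternatives were other size factors, filters and tests (DESeq2 1.42.0, limma 3.58.1), length offsets, a replicate block and libraries left out. The chi-square per gene between libraries of 1 group was 5.73 to 12.2, so no library repeated the counts of another. This average over genes does not show whether the libraries came from separate cells or RNA.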

Additional observations from a re-analysis of the deposited data

How the results depend on the processing

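Under every alternative run, 0 of the 77 genes were called, and the smallest adjusted p of any was 0.113, for Mrps17 in limma on log2(TPM + 1). The medians and sums kept their sign under the other size factors, filters, scales and tests. With 1 library left out in turn, or both first replicates (shSamd14 replicate 1 and control replicate 1), the median log2 fold change lay between -0.047 and 0.104 for all members, between -0.0454 and 0.117 for the large and between -0.0502 and 0.1 for the small subunit. The log2 ratio of the summed levels lay between -0.049 and 0.0946 for all members, between -0.0459 and 0.0986 for the large and between -0.0547 and 0.0872 for the small subunit, with the lowest value of each without both first replicates. The difference in the large to small log2 ratio lay between 0.0088 and 0.0132.

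The 327 genes called in all were 168 with limma on log2(TPM + 1), 170 on log2(TPM + 0.1), 104 at an adjusted p under 0.01, 153 without control replicate 1, 128 without shSamd14 replicate 2, up to 283 with another library left out and 42 without both first replicates. With the replicate block 682 genes and 0 members were called. Same-numbered libraries had correlations of deviations of -0.09, 0.22 and 0.38 for replicates 1, 2 and 3. Replicate 1 of shSamd14 correlated best with control replicate 2 (0.257), and the other shSamd14 replicates with their own number. These values do not settle whether the numbers pair the samples.

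Of 756 values of 42 named genes under alternatives, 706 kept their direction and side of the threshold, 43 turned in sign, all of genes that were not called, and 7 passed the threshold with their direction kept. These 7 were Kit without the filter on low counts, with the replicate block, in DESeq2 and without control replicate 3, 2810006K23Rik without the filter and with the block, and mt-Atp8 in DESeq2. The stricter threshold reused the main fit, so no direction could turn there. Of the named genes only Samd14 was called in the main fit, so for the others keeping the side of the threshold meant staying uncalled. Leaving out 1 library moved the log2 fold change of 26 of the 29 named members by over 1.5 times in some fit, the others being Mrpl13, Mrpl19 and Mrps18b. Mrpl45 was at -0.111 with length offsets, -0.103 with limma on log2(TPM + 1) and -0.105 on log2(TPM + 0.1), Mrps23 at -0.0219, -0.0205 and -0.0207 in the same fits, and Mrpl47 at 0.0058 and 0.0062 in the limma fits. With libraries left out as above, log2 fold changes lay between -0.0784 and 0.137 for Mrpl20, -0.146 and 0.0381 for Mrpl42, -0.0321 and 0.0404 for Mrpl44, -0.0802 and 0.0623 for Mrpl47, -0.226 and 0.0908 for Mrpl52, -0.213 and 0.143 for Mrpl57, -0.132 and 0.128 for Mrps12, -0.0235 and 0.151 for Mrps16, -0.105 and 0.0697 for Mrps21, -0.0177 and 0.122 for Mrps23, and -0.110 and 0.0118 for Mrps25. The ranges were -0.0014 to 0.215 for Aurkaip1, -0.0288 to 0.0341 for Dap3, -0.159 to 0.0242 for Chchd1 and -0.184 to 0.0803 for Gadd45gip1. The cause of these turns was not tested.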
